A study of Mus musculus with 4 samples.

Results

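The contrast described here is that of injured against uninjured wild-type mice: nuclei of the spinal dorsal horn taken 1 day after spared nerve injury (SNI), in which branches of the sciatic nerve are cut while another is left whole, set against nuclei of naive Gpr37l1+/+ mice. Members were chosen from the library titles, as barcodes with at least 300 detected genes and under 5% mitochondrial transcripts. They came to 46806 nuclei of 112194 in the whole series, with 19693 in the naive and 27113 in the SNI library. The other 65388 nuclei belong to the matching pair of libraries from Gpr37l1-/- mice, also naive and 1 day after SNI, whose values are given beside the wild-type ones only as a second pair of libraries. Each group is 1 library of dorsal horn microdissected from fresh spinal cord. The sources used here do not give age, sex, strain or how many animals a library pools.

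The treatment tag of 2 libraries goes against the title. The wild-type library titled SNI carries the tag for naive, and the knockout library titled naive carries the tag for SNI. Groups follow the titles throughout; if the tags held, both wild-type libraries would be naive. With 1 library a group there is no replicate, so no test, SE or p-value is given. Every ratio describes 2 libraries, and every interval is a 95% interval for counting error only.

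Cutting a peripheral nerve leaves the spinal cord itself uncut, but the dorsal horn receives the central endings of the injured sensory neurons. Astrocytes, which clear transmitter and potassium from synapses, are known to turn on intermediate filament genes such as Gfap under STAT3 control after injury. Microglia, the resident immune cells, survey the tissue through receptors such as P2ry12 and are known to lower these surveillance genes as they react. Excitatory and inhibitory interneurons of the dorsal horn relay and gate pain and itch with neuropeptides as well as glutamate, GABA and glycine.

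The naive library held 19942 barcodes and 35197290 transcripts counted as unique molecular identifiers (UMIs), the SNI library 27233 barcodes and 50605908 UMIs. A barcode held 1438.5 UMIs at the median in the naive and 1484 in the SNI library. Predicted doublets were left out, 9.76% and 9.85% of the kept nuclei, and the values below rest on the remaining 17771 naive and 24442 SNI nuclei. The libraries shared 164 barcodes. All 4 libraries were clustered together, and 8 classes were named from marker genes and compared. Unnamed clusters held 28.0% of the naive and 47.3% of the SNI nuclei.

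One cluster set the 2 wild-type libraries apart before any gene was compared. Its leading genes in the clustering were Actb, which encodes cytoplasmic actin, Pvalb, Gapdh, Insig1 and Aldoc, and it matched no marker list. It held 254 naive nuclei, 1.43% of the library, and 5304 SNI nuclei, 21.7%. Their median UMIs were close, 1197 and 1218. In the knockout pair the order was opposite, with 4852 naive nuclei (14.4%) and 576 SNI nuclei (2.28%). The libraries rich in this cluster are therefore the wild-type SNI and the knockout naive library, the same pair whose treatment tag contradicts the title. Shares of every other class in the SNI library are lowered by its presence, so each share is also given without that cluster in the denominator, an alternative added after the data were seen.

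Astrocyte nuclei were 951 of the naive and 1304 of the SNI nuclei, 5.35% and 5.34%, a ratio of 0.997 (0.916 to 1.08), and 1.26 without the Actb-led cluster. Microglia nuclei were 401 and 470, 2.26% and 1.92%, a ratio of 0.852 (0.744 to 0.976) and, without that cluster, 1.07 (0.937 to 1.23). These leave out 2 unnamed clusters with microglia markers. The one that also had oligodendrocyte markers held 151 naive and 314 SNI nuclei, 0.850% and 1.28%. The one that also had astrocyte markers held 22 and 25. Neither is part of the microglial values below. Precursors of oligodendrocytes (OPCs) were 412 and 509 nuclei, with ratios of 0.898 (0.787 to 1.03) and 1.13 (0.991 to 1.29). The ratios of astrocytes, microglia and OPCs thus lay below 1 with all nuclei and above 1 without the Actb-led cluster. The interval held 1 for astrocytes with all nuclei, for microglia without that cluster and for OPCs either way, so no direction is read from them.

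Mature oligodendrocytes, the myelinating glia, were 2739 naive and 2407 SNI nuclei, 15.4% and 9.85%, a ratio of 0.639, and 0.804 without the Actb-led cluster. When only nuclei of 1000 UMIs and 500 genes or more were counted, that share turned to 1.41 times the naive one. A second oligodendrocyte cluster marked by Carns1 held 1713 and 1587 nuclei, a ratio of 0.674, and 0.848 without the Actb-led cluster. Enpp6, one of the listed markers of committed precursors, is among the leading genes of this Carns1 cluster. The cluster named as committed precursors, led by 9630013A20Rik, Cnksr3, Prom1, Tcf7l2 and Tns3, held 198 and 191 nuclei, a ratio of 0.701. Excitatory neurons were 3724 and 3632 nuclei (ratio 0.709) and inhibitory neurons 2569 and 2548 (ratio 0.721), and both lay nearer 1 without the cluster, at 0.893 and 0.908.

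The neuron values leave out unnamed clusters with neuron markers. The largest of these, with no transmitter set, held 2870 naive and 3312 SNI nuclei, 16.1% and 13.6%. Another such cluster held 363 and 473. Within the 6293 naive and 6180 SNI neurons of the 13 named clusters alone, the makeup was close. The excitatory cluster led by Sntb1, with Car8 among its genes, went from 422 to 349 nuclei, a ratio of 0.842 (0.729 to 0.973). An excitatory cluster with Cdh23 and Aldh1a2 among its leading genes went from 271 to 336 nuclei, a ratio of 1.26 (1.07 to 1.49). The intervals of the other 11 ratios held 1.

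**Figure D1:**
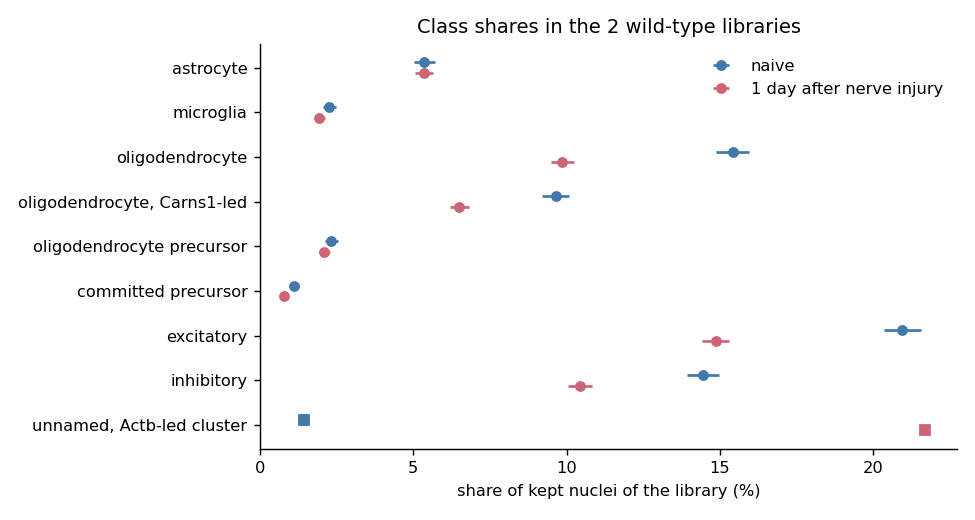
Share of nuclei in each class in the naive and SNI wild-type libraries, in percent of nuclei left after doublet removal; circles are library values with exact 95% binomial intervals and squares the unnamed Actb-led cluster. The Actb-led cluster stands at 1.43% and 21.7%, while astrocytes stand at 5.35% and 5.34%.

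Transcript levels were compared on UMIs summed over the nuclei of a class and scaled to the class total as CPM, the usual unit for sums of unequal depth, mitochondrial genes left out. A gene counts as measured with at least 100 UMIs over both libraries and as apart when its CPM differed by at least 1.5-fold. Log2 ratios are SNI over naive.

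Gpr37l1 (ENSMUSG00000026424, GRCm38 chromosome 1, 135160234 to 135167681, minus strand), the orphan receptor deleted in the other pair, was level within astrocytes of these mice, at 132 UMIs (147 CPM) naive and 206 UMIs (146 CPM) after SNI, a log2 ratio of -0.00 (-0.32 to 0.32). Knockout astrocytes held 0 and 2 UMIs of it. Over all nuclei Gpr37l1 was higher after SNI, 424 against 1103 UMIs, a log2 ratio of 0.81 (0.65 to 0.98). In such a sum over a library, more cells of a type and more RNA per cell cannot be told apart. It was also higher in excitatory neurons (47 and 127 UMIs, log2 ratio 1.29) and inhibitory neurons (39 and 87 UMIs, 1.06), where the summed level of 9 astrocyte markers was 163 naive and 242 CPM after SNI, and 209 and 266 CPM. The part of astrocyte RNA in those neuronal values was not tested. Its relative Gpr37 had 35 and 90 UMIs in astrocytes, a log2 ratio of 0.72 (0.14 to 1.33).

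In microglia more genes were lower than higher after SNI at the minimum of 100 UMIs. Of 2447 genes measured, 226 (9.24%) were at least 1.5-fold lower and 133 (5.44%) at least 1.5-fold higher, 14.7% in either direction. Clustering the wild type alone gave 223 higher, and with no minimum of UMIs 2693 were higher and 2007 lower, so which side is larger depends on these choices. The homeostatic genes are those by which resting microglia sense and survey their surroundings. Of 18 listed, 13 were measured, 9 were at least 1.5-fold lower and 0 higher, and their median log2 ratio was -0.83, against 0.02 over all genes measured in the class and 0.54 for the same list in the knockout pair. With only nuclei of 1000 UMIs and 500 genes or more, the wild-type median was -0.59, and with no minimum of UMIs -0.70.

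Gpr34 (GRCm38 chromosome X, 13632089 to 13640858, plus strand), a receptor for lysophosphatidylserine, had 90 UMIs (209 CPM) in naive and 33 UMIs (54.9 CPM) in SNI microglia, a log2 ratio of -1.93 (-2.55 to -1.34). P2ry12 (chromosome 3, 59216272 to 59262871, minus strand), the ADP receptor that steers microglial processes, had 225 UMIs (522 CPM) and 166 UMIs (276 CPM), a log2 ratio of -0.92 (-1.22 to -0.62). Both receptors were lower after SNI with intervals that do not reach 0, whereas the knockout pair gave 0.09 for Gpr34 and 0.79 for P2ry12.

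Selplg, the P-selectin ligand, had 445 and 195 CPM, a log2 ratio of -1.19. Siglech, a sialic acid-binding lectin, had 524 and 238 CPM, a log2 ratio of -1.14. Tgfbr1, the type I receptor for TGF-beta, a signal that maintains microglial identity, had 635 and 413 UMIs, a log2 ratio of -1.10 (-1.28 to -0.92). Sall1, a transcription factor of that identity, went from 172 to 83.1 CPM, a log2 ratio of -1.05 (-1.59 to -0.51). All 4 of these were lower by more than 2-fold.

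Csf1r, the receptor on which microglial survival depends, was less far apart, at 540 and 318 CPM and a log2 ratio of -0.77. Trem2 had 141 and 79.8 CPM (log2 ratio -0.83) and Cx3cr1, the receptor for neuronal fractalkine, 524 and 358 CPM (-0.55). The protease gene Ctss was level at 510 and 512 CPM. Under the minimum, Tmem119 had 31 and 31 UMIs, P2ry13 17 and 12, Olfml3 7 and 25 and Fcrls 14 and 40. The members under the minimum did not share one direction.

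**Figure D2:**
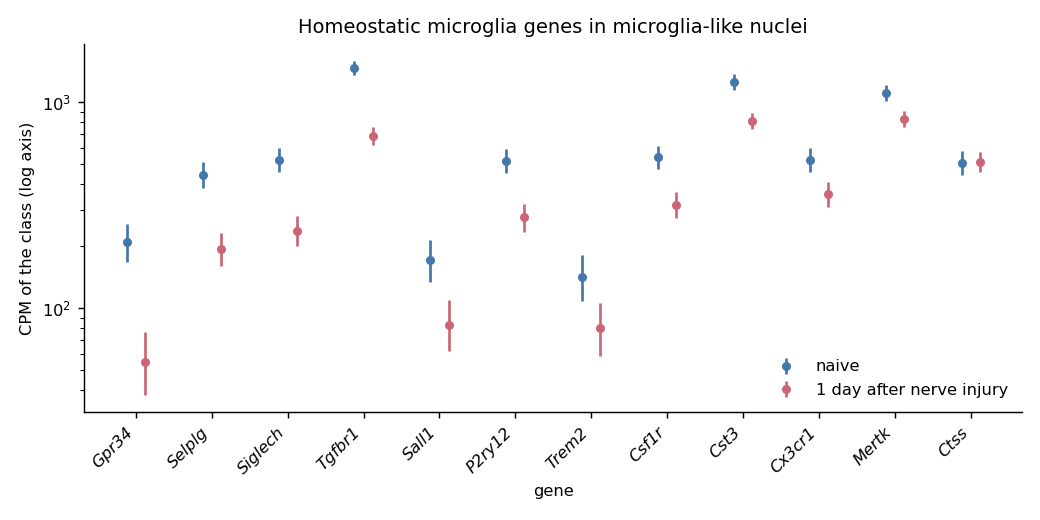
Level of 12 measured homeostatic genes in naive and SNI wild-type microglia, in CPM on a log axis; points are the library values and bars exact Poisson 95% intervals. Gpr34 shows the widest gap, 209 against 54.9 CPM, and Ctss none, 510 against 512 CPM.

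Besides Gpr34, the genes lowest after SNI by the interval bound nearest 0 lay outside the homeostatic list. P3h2, a collagen prolyl hydroxylase, had 182 and 70 UMIs, a log2 ratio of -1.86 (-2.28 to -1.45). Agmo, an ether-lipid cleaving enzyme, had 174 and 67 UMIs, also -1.86. Abca9 (-1.71), Ccnd3, which encodes cyclin D3 (-1.56), and the B-cell adaptor gene Blnk (-1.50) followed. In the knockout pair these 5 lay between -0.17 and 0.49.

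Few activation genes were abundant enough to compare. Of 23 listed, 6 were measured, 0 were higher and 1 was lower, against 5.44% and 9.24% of all genes measured. The lower one was Cd9, with 66 and 51 UMIs and a log2 ratio of -0.85 (-1.41 to -0.30). The median was -0.31. Apoe, a lipid carrier of reacting microglia, had 199 and 254 CPM, a log2 ratio of 0.35 (-0.04 to 0.75). Spp1 had 9 and 26 UMIs and Cd74 7 and 0, too few for a ratio. Of the complement genes, C1qb had 218 and 326 CPM (0.58, 0.22 to 0.95).

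The genes highest in SNI microglia were mostly ones known from neurons and astrocytes: Alk with 22 and 96 UMIs (1.65), Il1rapl2 (1.55), the serotonin receptor gene Htr2c (1.13) and the glutamate transporter gene Slc1a3 (1.20). In these nuclei the 9 microglia markers summed to 6789 CPM naive and 4523 CPM after SNI, and 6 of the 9 stand in the homeostatic list too, so the sum is not separate evidence. The 4 neuron markers summed to 3135 and 3931 CPM, 4 border macrophage markers to 23.2 and 41.6 CPM, and 5 markers of blood-derived myeloid cells to 2.32 and 0 CPM with every one of them at 0 in the SNI library. The part of neuronal RNA in the microglial values was not tested. Over all nuclei, without any cluster name, 4 of the 18 homeostatic genes were at least 1.5-fold higher and 3 lower, against 3.94% and 1.63% of all 15846 genes, and the median was 0.09, so the lower median was seen in the named microglia cluster and not in the sum of the library.

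In astrocytes 291 of 4506 genes (6.46%) were at least 1.5-fold higher and 99 (2.2%) lower, 8.66% in either direction. With only nuclei of 1000 UMIs and 500 genes or more, the lower count was 62. The 9 astrocyte markers summed to 7541 and 7314 CPM, and the neuron markers to 929 and 1295 CPM. Pde10a (chromosome 17, 8525372 to 8986648, plus strand), a phosphodiesterase that breaks down cAMP and cGMP, stood furthest from naive, with 27 UMIs against 276, a log2 ratio of 2.71 (2.14 to 3.34). In the knockout pair it was 0.97. With each nucleus thinned to 500 UMIs, 1.05% of naive and 7.36% of SNI astrocytes held a Pde10a UMI (2.73% and 13.5% unthinned). In the same measure excitatory neurons, which hold far more of it, stood level at 26.7% and 26.4%, and microglia were at 5.49% and 9.57%.

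Gfap (chromosome 11, 102887336 to 102900912, minus strand), the intermediate filament gene, had 38 and 177 UMIs in astrocytes, 42.2 and 126 CPM, a log2 ratio of 1.58 (1.06 to 2.12). Stat3 (chromosome 11, 100885098 to 100939540, minus strand), the factor that drives it, had 60 and 237 UMIs, 66.6 and 168 CPM, a log2 ratio of 1.34 (0.92 to 1.77). Thinned to 500 UMIs, nuclei with a Gfap UMI were 1.58% and 4.83% of astrocytes, against 0.249% and 0.638% of microglia, where median depths were 721 and 847 UMIs and 921 and 1037.5 in astrocytes. Of 24 reactive genes only 3 reached the minimum within astrocytes, and Gfap did so through the SNI library. With no minimum the median of the list was 0.73.

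Genes for handling of transmitter and ions were nearly level. All 16 were measured, with a median log2 ratio of -0.02 against 0.06 over all genes measured. The 1 that stood apart was Glul, glutamine synthetase, which turns captured glutamate into glutamine, with 149 and 406 UMIs and 165 and 288 CPM, a log2 ratio of 0.80 (0.53 to 1.08). The glutamate transporter gene Slc1a2 had 2664 and 3763 UMIs, a log2 ratio of -0.15 (-0.22 to -0.07). The water channel gene Aqp4 had 277 and 281 CPM, and the potassium channel gene Kcnj10 239 and 229 CPM. Transporters of inhibitory transmitters had ratios below 0, Slc6a9 for glycine at 280 and 212 CPM (-0.40) and Slc6a11 for GABA at 649 and 548 CPM (-0.25).

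Further genes high in SNI astrocytes were Vgf, a secreted neuropeptide precursor with 18 and 97 UMIs (1.79), Mmp16, a membrane metalloproteinase with 23 and 105 UMIs (1.55), and Kcnn2, a calcium-activated potassium channel with 353 and 678 CPM (0.94, 0.76 to 1.13). Vgf, a gene known from neurons, was at least 1.5-fold higher in all 5 classes where it was measured. The part of neuronal RNA in its astrocyte value was not tested. Sgk1, a kinase gene induced by glucocorticoids, had 31.1 and 64.6 CPM, a log2 ratio of 1.06, and Mt1, a metallothionein, 285 and 446 CPM, a ratio of 0.64. On the lower side stood Il15ra, an interleukin-15 receptor chain, with 65 and 43 UMIs and a log2 ratio of -1.24 (-1.83 to -0.66), and Lgr6, an R-spondin receptor, at -1.06. The paired ETS factors Etv5 (98.8 and 49.0 CPM, -1.01) and Etv4 (134 and 79.5 CPM, -0.76), known targets of fibroblast growth factor signalling, were lower together. Of 12 measured clock genes 1 passed 1.5-fold, the activator Arntl, which was lower (-0.74), and the median was -0.03.

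**Figure D3:**
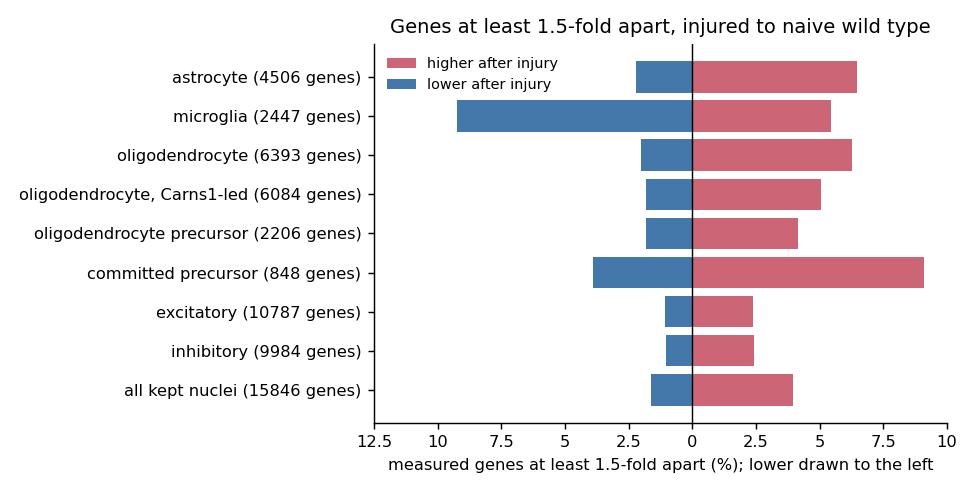
Percent of measured genes at least 1.5-fold higher (bars to the right) or lower (bars to the left) after SNI in each class and over all kept nuclei, with the number of genes measured beside each name. Microglia have the longer bar on the lower side, 9.24% against 5.44%; in the other classes the higher side is longer.

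In mature oligodendrocytes 401 of 6393 genes (6.27%) were at least 1.5-fold higher and 130 (2.03%) lower, 8.31% in either direction. With only nuclei of 1000 UMIs and 500 genes or more, 99 were higher and 45 lower. None of the 17 measured myelin genes passed 1.5-fold, 14 had ratios below 0, and the median was -0.28, against 0.04 over all genes. Opalin had 301 and 202 CPM (-0.57), the transferrin gene Trf 885 and 665 CPM (-0.41) and the lineage factor Sox10 297 and 218 CPM (-0.44). Cnp went the other way, at 103 and 135 CPM (0.39). In the Carns1 cluster the median of the 18 myelin genes was -0.08, and in the knockout oligodendrocytes 0.40.

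Sgk1 (chromosome 10, 21882184 to 21999903, plus strand) stood among the higher genes of both oligodendrocyte clusters. It had 226 and 476 UMIs in the main cluster, a log2 ratio of 1.04 (0.81 to 1.28), and 90 and 259 UMIs in the Carns1 cluster, 1.46 (1.11 to 1.83), whereas the knockout pair gave -0.70 and -0.50. Of 18 glucocorticoid-response genes, 10 were measured in the main cluster, with a median of 0.37. Of these, 4 were higher and 0 lower, against 6.27% and 2.03% of all genes there. They included Zbtb16 (131 and 237 CPM, 0.85) and Errfi1 (82.5 and 142 CPM, 0.79). Agt, angiotensinogen, with 26 and 79 UMIs (1.57) and Vgf with 63 and 170 UMIs (1.40) are genes known from astrocytes and neurons. In these nuclei the astrocyte markers summed to 240 and 372 CPM and the neuron markers to 1307 and 1732 CPM, and their part in those ratios was not tested.

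The cholesterol pathway supplies myelin membrane. In the Carns1 cluster 307 of 6084 genes (5.05%) were at least 1.5-fold higher and 110 (1.81%) lower, 6.85% in either direction. Of the 28 cholesterol and fatty acid genes, 20 were measured there, 19 had ratios above 0, 4 were at least 1.5-fold higher, and the median was 0.42, beside 0.48 for abundant cytoplasmic RNAs in the same cluster. Insig1, the sterol-sensing brake of the pathway, had 37.6 and 74.1 CPM, a log2 ratio of 0.98 (0.56 to 1.42). Idi1, an enzyme of an early step, had 39 and 66 UMIs (0.70, 0.11 to 1.31). In the main oligodendrocyte cluster the median was 0.19, in astrocytes -0.09, and in the knockout Carns1 cluster 0.14.

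Haemoglobin transcripts, which come from red blood cells, were lower after SNI in both oligodendrocyte clusters. Hbb-bs (chromosome 7, 103826534 to 103828096, minus strand) had 339 and 118 UMIs in the main cluster, a log2 ratio of -1.56, and 510 and 77 in the Carns1 cluster, -2.79 (-3.15 to -2.44). Hba-a1 had 171 and 15 UMIs in the Carns1 cluster, -3.57, though it and Hba-a2 are near-identical copies whose reads may be split. In the knockout pair the ratio of Hbb-bs was 4.91 and 4.34, the opposite direction. Over all wild-type nuclei the 5 red blood cell markers summed to 97.4 and 121 CPM, and 1484 of the 2902 Hbb-bs UMIs of the SNI library lay in the Actb-led cluster, where haemoglobin genes were the furthest above the named classes (Hbb-bs 209 against 33.1 CPM). Summed over the named classes Hbb-bs had a log2 ratio of -1.13. The naive UMIs were concentrated: 339 lay in 108 nuclei of the main cluster and 510 in 61 nuclei of the Carns1 cluster, while the 118 and 77 SNI UMIs lay in 112 and 75 nuclei. The share of nuclei with a Hbb-bs UMI was thus no lower after SNI, 3.94% and 4.65% in the main cluster. With only nuclei of 1000 UMIs and 500 genes or more, both Hbb-bs ratios were further below 0 by more than 1.5-fold. Other lower transcripts were the noncoding RNA A230001M10Rik, with 2152 and 1016 UMIs (-1.12, -1.22 to -1.01), and the predicted gene Gm43242 with 146 and 26 UMIs (-2.52).

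In OPCs 91 of 2206 genes (4.13%) were at least 1.5-fold higher and 40 (1.81%) lower, 5.94% in either direction. With only nuclei of 1000 UMIs and 500 genes or more, 42 were higher and 21 lower. Tubb5, a tubulin, had 61.3 and 138 CPM (1.17), the myelin gene Mobp 94.1 and 200 CPM (1.09), and the tetraspanin gene Cd81 228 and 410 CPM (0.85). The 8 oligodendrocyte markers summed to 2436 and 2604 CPM in OPCs, and 51 naive and 75 SNI nuclei of the class lay in a cluster with raised oligodendrocyte markers; their part in the Mobp ratio was not tested. Sgk1 (0.82) and Zbtb16 (0.94) were higher here also. Etv5 was lower as in astrocytes, with 83 and 52 UMIs and a log2 ratio of -1.14 (-1.67 to -0.62), while the knockout pair gave 1.16. Pde7a, a cAMP phosphodiesterase, had 69 and 42 UMIs (-1.18) and Arhgef3 81 and 50 UMIs (-1.16).

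Committed precursors were the smallest class, with 848 genes measured, 77 (9.08%) higher and 33 (3.89%) lower, 13% in either direction. Clustering the wild type alone gave 28 higher and 17 lower. Gpc5, a glypican, had 25 and 130 UMIs (2.17, 1.54 to 2.85), Cntnap2 99 and 319 UMIs (1.48) and Mgat4c 30 and 114 UMIs (1.71). The astrocyte markers summed to 131 and 321 CPM in these nuclei and the neuron markers to 1247 and 1830 CPM, and their part in these ratios was not tested. Opalin had 97 and 55 UMIs (-1.03) and the chromatin remodeller gene Chd3 94 and 50 UMIs (-1.12).

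In excitatory neurons 256 of 10787 genes (2.37%) were at least 1.5-fold higher and 117 (1.08%) lower, 3.46% in either direction. In inhibitory neurons 243 of 9984 (2.43%) were higher and 105 (1.05%) lower, 3.49% in either direction. Their larger totals, 6209088 and 6838441 UMIs in excitatory neurons, let genes of lower level reach the minimum of 100 UMIs, so these shares cannot be set against those of glia directly.

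The receptors and channels that set excitability were level. All 21 glutamate receptor genes were measured, with medians of -0.02 and -0.06 in excitatory and inhibitory neurons and 0 past 1.5-fold. Grin1, the obligate subunit of NMDA receptors, had ratios below 0 in both, at 392 and 326 CPM in excitatory and 445 and 369 CPM in inhibitory neurons, each a log2 ratio of -0.27. All 21 genes of GABA and glycine receptors and chloride transport had medians of -0.01 and -0.00, again with 0 past 1.5-fold. The 30 sodium, potassium and calcium channel genes had medians of -0.02 and -0.06, with 1 past 1.5-fold in excitatory and 0 in inhibitory neurons.

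Neuropeptide genes differed one by one. Of 15 measured in excitatory neurons, 3 were higher and 1 was lower, against 2.37% and 1.08% of all genes there. The median was 0.15, against 0.02 over all genes. Gal, galanin, had 120 and 234 UMIs (0.82, 0.50 to 1.15), Npy, neuropeptide Y, 292 and 486 UMIs (0.59) and Pdyn, the dynorphin precursor, 54 and 91 UMIs (0.61). Naive inhibitory neurons held more of each, with Npy at 89.0 CPM against 47.5 in excitatory ones. The ratios in inhibitory neurons were 0.29 for Npy and 0.50 for Pdyn. Over all nuclei they were 0.84 for Gal, 0.61 for Npy and 0.71 for Pdyn. The part of RNA from other cells in the excitatory values was not tested. Nmu (chromosome 5, 76333495 to 76363788, minus strand), neuromedin U, was the lower one, at 509 and 349 UMIs, 82.7 and 51.4 CPM, a log2 ratio of -0.69 (-0.89 to -0.49), though the cluster it leads kept its share, with 526 and 507 nuclei. In inhibitory neurons Gal had 166 and 277 UMIs (0.64) and Grp, gastrin-releasing peptide, 89 and 163 (0.77). There 2 of 14 measured genes were higher and 0 lower, against 2.43% and 1.05% of all genes.

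Most receptors for peptides had ratios below 0, though most of these intervals held 0. The exceptions were Grpr, Npy1r and Tacr3 in excitatory and Sstr2, Oprm1 and Tacr3 in inhibitory neurons. In excitatory neurons 9 of 12 measured genes had ratios below 0, with a median of -0.11, and 1 passed 1.5-fold: Grpr (chromosome X, 163513904 to 163549677, minus strand), the receptor of the itch pathway, with 106 and 69 UMIs, a log2 ratio of -0.76 (-1.22 to -0.31) against 1.04 in the knockout pair. Npy1r, a neuropeptide Y receptor, had 36.2 and 26.8 CPM (-0.43, -0.73 to -0.15). In inhibitory neurons 9 of 10 measured genes were below 0, with a median of -0.28. Sstr2, a somatostatin receptor that marks superficial inhibitory cells, had 76 and 47 UMIs there, a log2 ratio of -0.79 (-1.35 to -0.25). The opioid receptor gene Oprm1 had 763 and 657 UMIs there (-0.32, -0.47 to -0.16).

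Most activity genes and some axon injury genes were sparse in these nuclei. Of 26 immediate early genes, 9 were measured in excitatory neurons with a median of 0.18, and the 1 past 1.5-fold was Vgf, with 19.7 and 40.7 CPM (1.05, 0.73 to 1.37). Vgf had 32.3 and 53.6 CPM in inhibitory neurons (0.73). Fos had 18 and 35 UMIs in excitatory neurons and Jun 19 and 50, both under the minimum. Atf3, the marker of injured sensory and motor neurons, had 3 and 3 UMIs in excitatory neurons, against 1 and 70 in the knockout pair. Other axon injury genes under the minimum there were Sprr1a with 0 and 10 UMIs, Lgals1 with 9 and 29, Gadd45a with 18 and 39 and Klf6 with 42 and 55. In inhibitory neurons Atf3 had 0 and 7 UMIs and Sprr1a 0 and 13. Over all nuclei Sprr1a had 0 and 51 UMIs, against 1 and 577 in the knockout pair. Of 12 axon injury genes measured in excitatory neurons, Gal, the endopeptidase gene Ecel1 (47 and 87 UMIs, 0.75) and Tubb3, neuronal tubulin (91.5 and 139 CPM, 0.61), passed 1.5-fold. Of all genes there, 2.37% were higher. The other measured axon injury genes lay between -0.18 for Cacna2d1 and 0.38 for Tubb2b. Abundant ones were level, with Stmn2 at 1273 and 1402 UMIs (-0.00) and Gap43 at 744 and 849 (0.05).

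Neuronal genes outside the lists that were furthest apart had varied roles. Slc15a2, a peptide transporter best known in astrocytes, had 42 and 143 UMIs in excitatory neurons (1.63) and 46 and 129 in inhibitory ones (1.39). Rnf152, a lysosomal ubiquitin ligase, had 58.5 and 114 CPM (0.97) and 92.2 and 215 CPM (1.22, 1.06 to 1.38). Alk (chromosome 17, 71868972 to 72604627, minus strand), a receptor tyrosine kinase, had 605 and 1423 UMIs in inhibitory neurons, 121 and 266 CPM, a log2 ratio of 1.13 (0.99 to 1.27). Tsc22d3, a glucocorticoid-induced gene, had 37 and 96 UMIs there (1.27), and Etv4, lower in astrocytes, 125 and 280 UMIs (1.06). On the lower side Rtl8a, a domesticated retrotransposon gene, had 292 and 156 UMIs in excitatory (-1.05, -1.34 to -0.76) and 203 and 122 in inhibitory neurons (-0.84), and Nrn1, neuritin, 102 and 63.5 CPM in excitatory neurons (-0.68).

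Some genes stood apart in the same direction in unrelated classes. Of 5815 genes measured in at least 4 classes, 13 (0.224%) were at least 1.5-fold higher in every class where they were measured and 2 lower. The higher ones were Rps3a1, Tmsb4x, Rplp0, Gm47283, Vgf, Sh3bgrl3, Rnf152, Ftl1, Tuba4a, Selenow, Mrpl53, Dynll2 and Ube2m, and the lower ones the chloride channel gene Clcn2 and E130102H24Rik. Tmsb4x, which encodes the actin-binding thymosin beta4, was measured in all 8, with log2 ratios from 0.79 to 1.16, and over all nuclei it had 255 and 594 CPM. Rps3a1 lay between 1.02 and 1.29 in 6 classes, with 1.22 in the knockout pair over all nuclei. Ribosomal protein, Tmsb4x and Ftl1 transcripts have processed pseudogene copies, so their counts may be split between copies. Other abundant cytoplasmic RNAs were higher too: the median of 16 such genes lay between 0.21 and 0.58 in the 8 classes, and that of cytosolic ribosomal proteins between 0.19 and 0.38. The knockout pair gave 0.24 to 0.57 and 0.27 to 0.59.

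Chaperones of the endoplasmic reticulum stood above 0 beside them. These proteins fold secreted and membrane proteins and are known to be induced together by the unfolded protein response, through a promoter element bound by ATF6 with NF-Y. That element was searched as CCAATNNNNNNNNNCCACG, on both strands, in RefSeq windows of 300 bases around gene starts (GRCm38.p6). It was found in 7 of the 17 listed genes with a window, namely Hspa5, Hsp90b1, Calr, Canx, Pdia6, Dnajc3 and Creld2. Of all genes with a window, 37 of 27025 (0.137%) held it, in 39 of all 32851 windows (0.119%). A match is a description of the sequence and not a shown binding site. The stretches below are shown because they are shared by the main chaperones whose values follow. They run 5′ to 3′ on the gene's strand, with the fixed ends of the element in capitals, which read CGTGG and ATTGG where the match lies on the other strand. Only the match itself is printed for Hspa5, since GENCODE vM21 starts that gene upstream of it. Hsp90b1 has 2 matches, 193 and 88 bases from the gene start, and only the first of these is printed. Positions are chr2:34772025-34772043 for Hspa5, chr10:86705608-86705686 for Hsp90b1, chr8:84847045-84847123 for Calr and chr11:50325770-50325848 for Canx.
Hspa5: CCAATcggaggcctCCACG
Hsp90b1: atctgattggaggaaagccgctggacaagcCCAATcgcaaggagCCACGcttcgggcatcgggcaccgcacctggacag
Calr: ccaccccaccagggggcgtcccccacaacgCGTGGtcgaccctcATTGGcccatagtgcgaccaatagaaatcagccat
Canx: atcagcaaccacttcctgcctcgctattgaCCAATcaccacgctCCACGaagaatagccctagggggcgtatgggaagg

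Hspa5 (chromosome 2, 34771970 to 34777547, plus strand), the HSP70 chaperone BiP, was higher after SNI by at least 1.5-fold in 6 of the 7 classes in which it was measured. It had 104 and 262 UMIs in astrocytes, 115 and 186 CPM, a log2 ratio of 0.69 (0.36 to 1.03). In microglia it had 123 and 229 CPM (0.90), in mature oligodendrocytes 149 and 227 CPM (0.60), in the Carns1 cluster 108 and 188 CPM (0.80), in excitatory neurons 97.0 and 150 CPM (0.63, 0.48 to 0.78) and in inhibitory neurons 86.2 and 134 CPM (0.64). OPCs were the exception, at 63 and 97 UMIs and a log2 ratio of 0.16 (-0.31 to 0.64). In the knockout pair its ratios in these classes lay between -0.19 and 0.10.

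The other genes with the element did not follow the same order over the classes. Calr, the calcium-binding chaperone calreticulin, had ratios of 0.66 in astrocytes, 0.77 in microglia and 0.71 in OPCs, but 0.34 in inhibitory neurons. Hsp90b1, the HSP90 of the compartment, had 205 and 206 CPM in astrocytes (0.00), 162 and 246 CPM in OPCs (0.60) and 130 and 173 CPM in excitatory neurons (0.41). Pdia6, a disulfide isomerase, had 0.67 in astrocytes and 0.31 in the Carns1 cluster, and the co-chaperone gene Dnajc3 -0.24 in astrocytes and 0.35 in mature oligodendrocytes. Creld2 was measured only over all nuclei, at 216 and 380 UMIs (0.25). Canx, membrane-bound calnexin, ranged from 0.11 in excitatory neurons to 0.51 in astrocytes over the classes in which it was measured. Herpud1, which acts in removal of misfolded proteins, had 34.3 and 72.5 CPM in the Carns1 cluster (1.08) and 22.2 and 37.5 CPM in inhibitory neurons (0.76), while Atf6, the sensor, had ratios below 0 in most classes, from -0.45 in oligodendrocytes to 0.11 in microglia.

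Over the whole list the median log2 ratio was 0.39 in astrocytes (10 genes measured, 4 higher), 0.28 in microglia (7, 3 higher), 0.44 in oligodendrocytes (15, 3 higher), 0.39 in the Carns1 cluster (13, 4 higher), 0.36 in OPCs (6, 2 higher), 0.37 in excitatory neurons (17, 2 higher) and 0.35 in inhibitory neurons (16, 4 higher). None of the listed genes was 1.5-fold lower in these 7 classes. Of all genes measured, 6.46% were at least 1.5-fold higher in astrocytes, 5.44% in microglia, 6.27% in oligodendrocytes and 5.05% in the Carns1 cluster. The shares were 4.13% in OPCs, 2.37% in excitatory and 2.43% in inhibitory neurons. The shares lower lay between 1.05% in inhibitory neurons and 9.24% in microglia. Knockout medians lay between -0.11 and 0.26. Medians over all genes measured in a class were between 0.01 and 0.06. Cytosolic heat shock genes had medians from 0.19 in microglia to 0.46 in astrocytes, where Hsph1, an HSP110 co-chaperone, had 36 and 100 UMIs (0.83), and glycolysis genes from 0.23 to 0.54. Abundant cytoplasmic RNAs lay in the same range in these libraries, and whether the chaperone values differ from them was not tested.

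**Figure D4:**
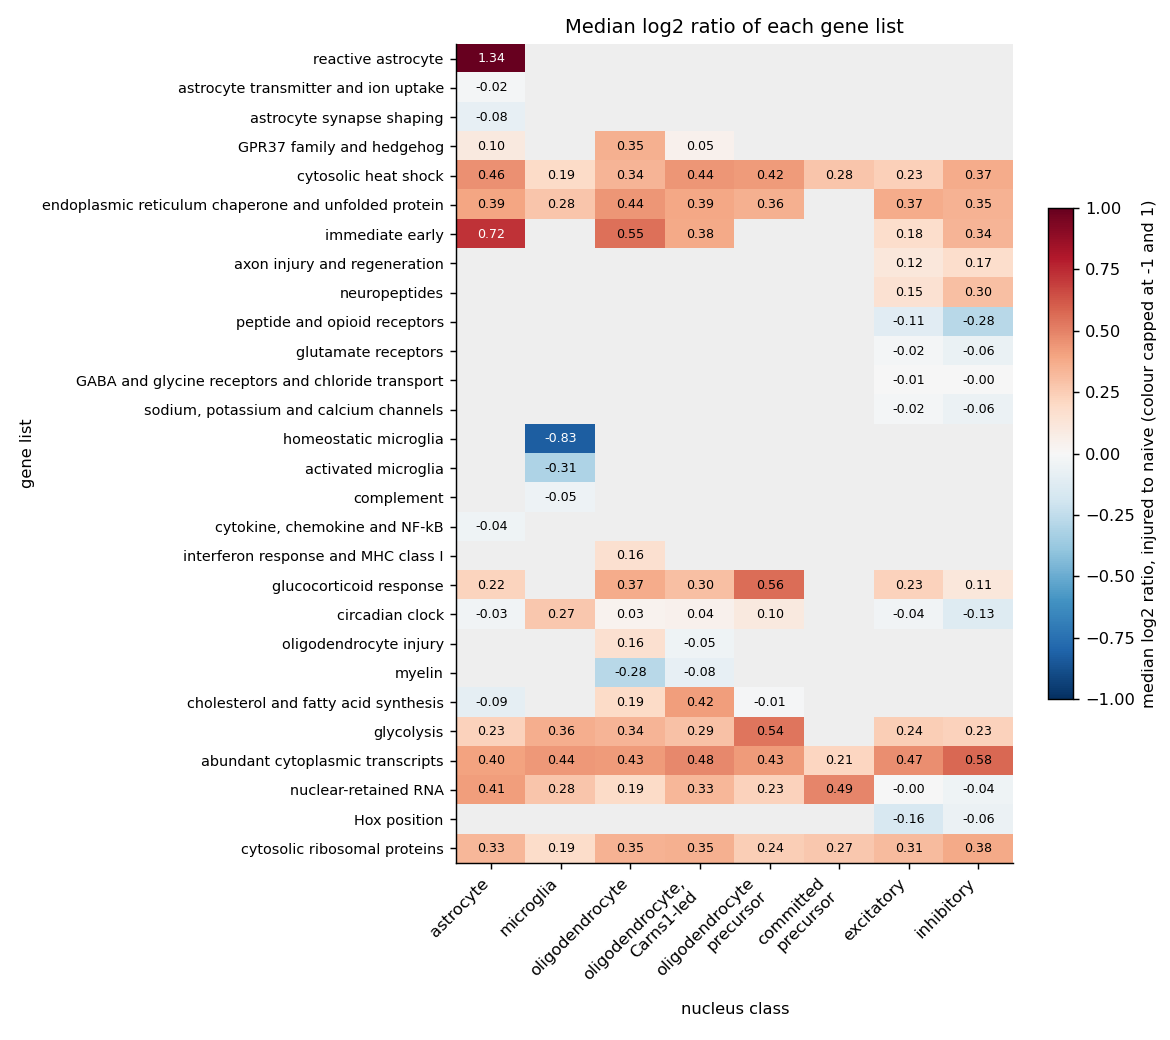
Median log2 ratio of each gene list (rows) in each class (columns), SNI over naive wild type, as colour capped at -1 and 1; grey fields have fewer than 3 measured genes. Homeostatic genes in microglia are the darkest field below 0 at -0.83, and heat shock and endoplasmic reticulum lists lie above 0 in every class shown.

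Over all kept nuclei together, which needs no cluster names, 624 of 15846 genes (3.94%) were at least 1.5-fold higher and 258 (1.63%) lower, 5.57% in either direction, and the higher count was 378 without the unnamed clusters. The top of this ranking, set up after the data were seen, held genes of blood vessels and inflammation. Ccl12, a chemokine that attracts monocytes, had 3 UMIs in the naive and 510 in the SNI library, 0.101 and 11.6 CPM, a log2 ratio of 6.84 (5.29 to 9.13), against 6 and 91 UMIs in the knockout pair (4.60). Its UMIs were spread thinly: 131 of them fell in the Actb-led cluster, 57 in excitatory neurons and 50 in mature oligodendrocytes. Microglia had the highest share of nuclei with a Ccl12 UMI, 7.66% (36 of 470, median depth 847 UMIs), against 1.54% of excitatory neurons at a median of 1615.5 UMIs and 2.08% of oligodendrocytes at 777. Naive microglia had 0 Ccl12 UMIs, a count that allows up to 3.

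Endothelial genes made up much of the rest. Flt1, a VEGF receptor, had 290 and 1278 UMIs (1.57, 1.39 to 1.76), Ly6a 32 and 276 (2.54), the flow-responsive factor Klf2 31 and 216 (2.24) and Adgrl4 69 and 424 (2.05). Of these UMIs in the SNI library 77.4%, 63.4%, 63.0% and 78.1% lay in the cluster of endothelial and pericyte markers, which had 40 naive and 222 SNI nuclei. Osmr, the oncostatin M receptor, had 10 and 98 UMIs (2.73), 51 of the 98 in that cluster. The 7 endothelial markers summed to 45.6 and 99.4 CPM over all nuclei.

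Reactive genes that were too sparse within astrocytes could be read here. Of 24 listed, 17 were measured. Of these, 11 were at least 1.5-fold higher and 0 lower, against 3.94% and 1.63% of all genes. The median was 0.95 against 0.01 over all genes, and 1.11 in the knockout pair. Vim, vimentin, had 34 and 171 UMIs (1.77), the complement gene C4b 36 and 169 (1.67), the small heat shock gene Hspb1 61 and 296 (1.71) and the protease inhibitor gene Serpina3n 121 and 494 (1.46). S100a10, an annexin partner, had 197 and 639 UMIs (1.13). Vim and C4b reached the minimum of UMIs through the SNI library, so the count and median of measured genes lean toward genes high there. The listed genes under the minimum had ratios above 0 too, from 0.09 for Aspg (7 and 11 UMIs) to 2.34 for Lcn2 (4 and 30 UMIs), though on few UMIs. The astrocyte markers summed to 432 and 594 CPM over all nuclei, a ratio of 1.38, the ependymal markers to 27.3 and 48.6 CPM, and of 653 Gfap UMIs 177 lay in named astrocytes and 154 in the Actb-led cluster. Without the unnamed clusters the median of this list was 0.73.

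Of 21 immediate early genes measured over all nuclei, 11 were at least 1.5-fold higher and 0 lower, against 3.94% and 1.63% of all genes. Their median was 0.59, and -0.19 in the knockout pair. Fos had 112 and 341 UMIs (1.04), Egr1 373 and 965 (0.81) and Egr3 23 and 92 (1.43), while Npas4, a transcription factor induced by neuronal firing, had 163 and 219 (-0.14, -0.44 to 0.16) and Arc 51 and 68 (-0.15). Atf3 had 8 and 47 UMIs (1.99), and 10 and 362 in the knockout pair. Ccl2, another monocyte chemokine, had 0 and 24 UMIs. With the naive library set at a floor of 3 UMIs the ratio was 5.41-fold, a log2 ratio of 2.43 with a lower bound of 2.02. Atf3, Ccl2 and the Hox genes that follow were picked after their values were seen.

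Position along the cord was compared through Hox genes, since lumbar and sacral segments express the 10 and 11 groups. Over all nuclei Hoxd10 had 66 and 224 UMIs (1.20, 0.80 to 1.62), Hoxd11 126 and 369 (0.99) and Hoxc11 34 and 98 (0.96), while Hoxc10 had 888 and 1587 (0.27) and the more rostral Hoxc9 1079 and 1468 (-0.12). In the knockout pair the first 3 lay between -0.93 and -0.31. The wild-type SNI library thus held more of the most caudal Hox RNA than the naive one, and its part in the differences above was not tested.

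**Figure D5:**
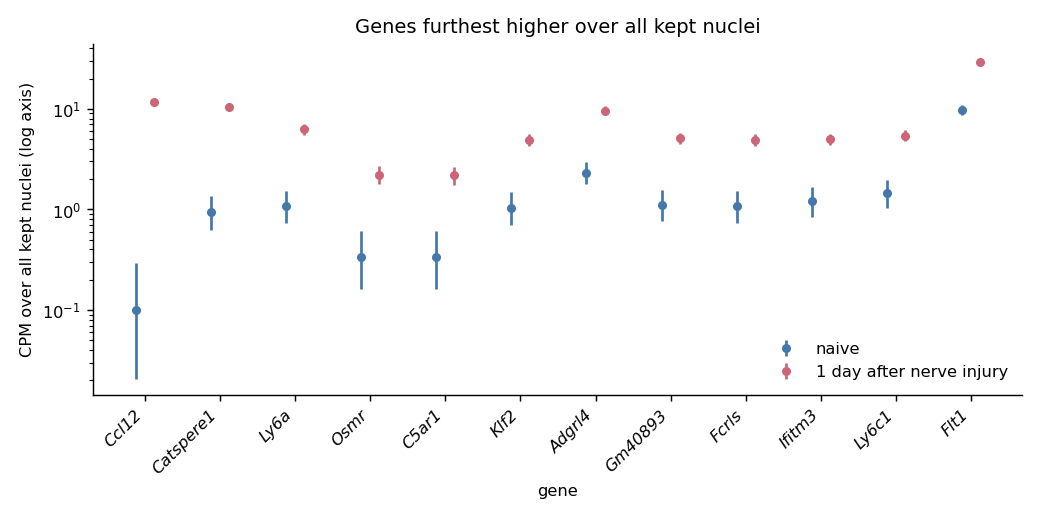
Level of the 12 genes furthest higher after SNI over all kept nuclei, in CPM on a log axis, with exact Poisson 95% intervals as bars. Ccl12 goes from 0.101 to 11.6 CPM, and Flt1 from 9.74 to 29.0 CPM.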

How the data were processed

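Single-nucleus RNA-seq data of 4 libraries of mouse spinal dorsal horn were used, and the 2 wild-type libraries were compared. The authors deposited whole-number UMI counts per gene and barcode for 32285 genes, made with Cell Ranger 7.0.0 per the file headers. The genome build GRCm38 and the tools R 4.3.0 and Seurat 4.3.0 stand in the submitters' processing notes, with no role given. Coordinates are from GENCODE vM21 (GRCm38), in which 32158 of the gene IDs were found, and promoter windows from RefSeq (GRCm38.p6).

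From the deposited counts, 369 of 47175 wild-type barcodes were removed for under 300 genes or for 5% or more mitochondrial UMIs. Doublets were scored by simulation in scanpy 1.11.5, and nuclei above the 90th percentile of the score were left out of each library, because the automatic threshold marked 0% and 0.111% of the wild-type nuclei. For clustering, counts were scaled to an equal total per nucleus and log-transformed, without thinning (3000 variable genes, 40 components, 20 neighbours, Leiden resolution 1, leidenalg 0.10.2). Members of the gene lists, Malat1 and mitochondrial genes were left out of that step. The 50 clusters were named from marker lists. Thinning to 500 UMIs was used for the shares of nuclei with a UMI of a gene, where stated. Raw UMIs were summed per class, with mitochondrial genes left out, and given as CPM of that sum. Intervals are exact: conditional binomial for ratios of UMIs, Poisson for levels and Clopper-Pearson for shares, at 95% (Python 3.11.15, numpy 2.4.6, scipy 1.17.1, pandas 2.3.3). UMIs remove amplification copies, and the intervals cover counting error only. A library with 0 UMIs was set at a floor of 3. No test was run, since each group is 1 library. The ratio calculation was tested on simulated data.

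Genes named are Gpr37l1 and Gpr37, in each class of a list its 4 members furthest from a ratio of 1, the 8 highest and 8 lowest genes of a class by the interval bound nearest 0, those apart in all of at least 4 classes, the 5 highest and 5 lowest against the other classes, and leading, marker and Hox genes; other list members are named to fill out their groups, after their values were seen. The minimum of 100 UMIs over both libraries lets a gene pass through the library in which it is high. The members and lists were chosen with earlier results of these data known. The doublet rule, the naming rule (adjusted on the cluster table), the separate Carns1 cluster, the ribosomal protein list, the promoter search and the ranking over all nuclei were set after the data were seen. Alternatives were a stricter nucleus filter, doublets kept, clustering of the wild-type libraries alone, another resolution, no minimum of UMIs, scaling to a median of 0, leaving out unnamed clusters, and shares without the Actb-led cluster. Some list members are counted but not reported by name here.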

Additional observations from a re-analysis of the deposited data

Results flagged for a closer look

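For the results below the wild-type and knockout pairs of libraries lay in opposite directions, naive to SNI. Each pair is 1 library against 1, and none of these differences between pairs was tested.

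The share of the Actb-led cluster had a log2 ratio of 3.92 in the wild type and -2.66 in the knockout pair. Haemoglobin transcripts were lower after SNI in wild-type and higher in knockout oligodendrocytes. In the main cluster Hbb-bs was at -1.56 against 4.91, Hba-a1 at -1.71 against 5.14 and Hba-a2 at -1.77 against 4.44. In the Carns1 cluster Hbb-bs was at -2.79 against 4.34, Hba-a1 at -3.57 against 5.26, Hba-a2 at -3.53 against 3.92 and Hbb-bt at -3.05 against 5.98.

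Meg3, a noncoding RNA abundant in neurons, had 0.76 against -1.19 in mature oligodendrocytes, 0.76 against -1.09 in the Carns1 cluster and 0.88 against -0.80 in committed precursors. Rgs7, a regulator of G protein signalling, had 0.94 against -1.26 in the Carns1 cluster. In committed precursors 4 genes best known from neurons did likewise: Nrxn3 (1.503 against -1.40), Cntnap2 (1.48 against -1.23), Lingo2 (1.19 against -0.86) and Rbfox1 (1.09 against -1.25).

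Etv5 in OPCs had -1.14 against 1.16, Gm47283 in microglia 1.54 against -1.06, and Gm15496 in excitatory neurons -1.13 against 1.61.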

How the results depend on the processing

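No paired analysis was possible because each group is 1 library. Depth limits microglia, OPCs and committed precursors most: most listed genes there had under 100 UMIs. Of 2206 values of named genes under the alternatives, 2 reversed, 117 moved beyond their intervals and 2087 did not; of list medians 142 moved and 441 did not. The cause of each shift below was not tested.

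With at least 1000 UMIs and 500 genes per nucleus, share ratios were 1.34 in astrocytes, 1.03 in microglia, 1.41 in oligodendrocytes, 0.837 in the Carns1 cluster, 1.08 in OPCs and 0.667 in inhibitory neurons. Counts were then 62 lower in astrocytes, 52 higher and 91 lower in microglia, 99 and 45 in oligodendrocytes, and 42 and 21 in OPCs. Medians were 0.86 for reactive genes over all nuclei, -0.10 for astrocyte uptake, 0.57 for heat shock in oligodendrocytes, 0.15 and 0.50 for endoplasmic reticulum chaperones in astrocytes and the Carns1 cluster, -0.0325 for channels in excitatory neurons, -0.59 and 0.25 for homeostatic genes in microglia and over all nuclei, 0.16 for complement and -0.32 for myelin. Slc2a1 in oligodendrocytes reversed from 0.71 to -0.39.

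Without the Actb-led cluster in the denominator, chosen after seeing the data, share ratios were 1.26 in astrocytes, 1.07 in microglia, 0.804 in oligodendrocytes, 0.848 in the Carns1 cluster, 1.13 in OPCs, 0.883 in committed precursors, 0.893 in excitatory and 0.908 in inhibitory neurons. Clustering the wild type alone gave share ratios of 0.626 in the Carns1 cluster and 0.904 in committed precursors, 223 higher genes in microglia, 28 higher and 17 lower in committed precursors, and medians of 0.39 for heat shock in microglia, 0.030 for GABA and glycine receptors and -0.043 for channels in excitatory neurons. At resolution 0.5 the committed precursor ratio was 1.04.

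With doublets kept, medians were 0.37 for heat shock in microglia, 0.19 for neuropeptides and -0.082 for glutamate receptors in inhibitory neurons, 0.039 and -0.041 for GABA and glycine receptors in excitatory and inhibitory neurons, -0.040 for channels in excitatory neurons, -0.65 for homeostatic and -0.10 for activated microglia. The noncoding RNA 9330185C12Rik in inhibitory neurons reversed from -1.09 to 0.075.

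With no minimum beyond 1 UMI, genes higher and lower numbered 2395 and 1608 in astrocytes, 2693 and 2007 in microglia, 2604 and 1432 in oligodendrocytes, 2363 and 1456 in the Carns1 cluster, 2206 and 1819 in OPCs, 2627 and 1668 in committed precursors, 1919 and 1502 in excitatory neurons, 1865 and 1570 in inhibitory neurons, and 2164 and 1650 over all nuclei. Medians were 0.73 for reactive and 0.077 for synapse genes in astrocytes, 0.47 and 0.30 for heat shock in microglia and excitatory neurons, 0.58 and 0.47 for endoplasmic reticulum chaperones in astrocytes and microglia, 0.49 for immediate early genes in inhibitory neurons, 0.38 and 0.35 for axon injury in excitatory and inhibitory neurons, 0.22 for neuropeptides in excitatory neurons, -0.70 for homeostatic genes and -0.25 for myelin.

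With the median ratio set to 0, medians were -0.14 for astrocyte synapse genes, -0.043 and -0.084 for glutamate receptors and -0.039 and -0.076 for channels in excitatory and inhibitory neurons, and -0.32 for myelin. Without the unnamed clusters, 378 genes were higher over all nuclei, and medians there were 0.73 for reactive and -0.077 for homeostatic genes.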

Other observations

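Small clusters outside the compared classes also differed in size. The cluster with endothelial and pericyte markers held 40 naive and 222 SNI nuclei, that with ependymal markers 44 and 143, that with pericyte markers 28 and 58, and that with fibroblast markers 20 and 26. Catspere1 had 28 and 459 UMIs over all wild-type nuclei, a log2 ratio of 3.47, against -3.99 in the knockout pair, the same order as the Actb-led cluster. Among the lowest transcripts over all nuclei were the predicted genes Gm43242, with 265 and 81 UMIs (-2.28), and Gm3417, with 161 and 50 (-2.25).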
